A study of Arabidopsis thaliana with 28 samples.

Results

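ATGP and ATLANTYS are families of Gypsy retrotransposons of Arabidopsis thaliana. All families whose name starts with ATGP or ATLANTYS in the authors' deposited table of transposable elements were taken. This gave 7 families, ATGP2, ATGP8, ATGP9B, ATGP10, ATLANTYS1, ATLANTYS2 and ATLANTYS3, out of 83 named families in the table. The table labels all 7 as Gypsy elements with long terminal repeats (LTRs), and the remaining 4 of the 11 listed Gypsy families are ATHILA elements. RNA came from aerial parts, the shoot without roots, of 6 day-old seedlings, and 3 libraries were made from each genotype, wild-type Col-0 and the caa39 mutant. The title of the series concerns topoisomerase VI, an enzyme that passes DNA duplexes through each other, and caa39 is a mutant of this enzyme. The labels describe no allele, and the mutant is represented by this single name. ATGP2 here is the retrotransposon family and not the protein-coding gene that carries the same name as a synonym in RefSeq.

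Gypsy elements copy themselves through RNA. Transcription starts in the LTR, reverse transcriptase makes DNA from the transcript, and integrase inserts the new copy into the genome. In Arabidopsis many Gypsy copies lie in the heterochromatin around the centromeres, where DNA methylation and methylation of histone H3 on lysine 9 keep most of them transcriptionally silent. A family groups dispersed copies, many of them truncated or mutated, so a value given for a family has no single position in the genome. RNA counted for a family may come from an element's own promoter or from a transcript that runs through a copy, which these values do not separate.

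The values are normalised reads, meaning reads divided by a size factor that corrects for the depth of the library. The deposited table gives group means, and the reads of each library were solved from them. For caa39, 6 sets of size factors fitted. The set in which libraries differed least was used, so every caa39 library value rests on that choice. Within a genotype the letters a, b and c run from the largest size factor to the smallest, and they do not stand for replicate numbers. The 83 named families held 16301 to 18997 reads per wild-type library and 14609 to 22681 per caa39 library, and 1 read was worth 0.732 to 1.22 normalised reads. The table holds only entries with an adjusted p under 0.05, so 100% of its named families passed, and that all 7 families are in it is not a result about them. ATGP and ATLANTYS families that are not in the table were not analysed here. Marker genes are not part of the table, so the tissue could not be checked. In bulk seedling RNA, more copies transcribed, more RNA per copy and a change in the make-up of the tissue cannot be told apart.

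The first comparison asked in which direction each family differed between caa39 and the wild type. ATGP10, ATGP2 and ATLANTYS3 rose in caa39, and ATGP8, ATLANTYS2, ATLANTYS1 and ATGP9B fell. Of the 7, the authors' deposited table gives 3 as higher, against 48.2% of all named families, and 4 as lower, against 51.8%. Both prefixes held families of either direction, with 2 of the 4 ATGP families and 1 of the 3 ATLANTYS families higher. The changes ran from a 7.32-fold rise of ATGP10 to a fall of ATGP8 to 0.188 of its wild-type level in the authors' deposited table. The other 5 families changed less than 2-fold. The libraries of the genotypes did not overlap in any of the 7 families, as in 98.8% of those listed. An adjusted p below 0.01 in the authors' deposited table was reached by all 7, against 74.7% of the named families, and 6 passed a Bonferroni adjustment over the 83, against 62.7%.

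**Figure D1:**
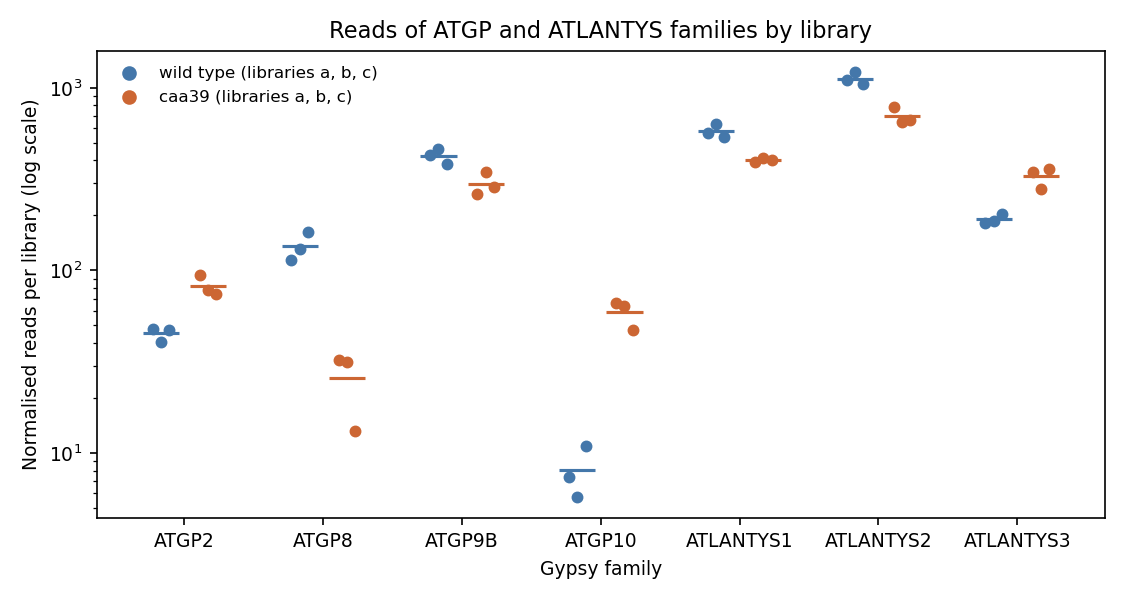
Normalised reads of each of the 7 families (log scale), with 1 point per library and a line at the mean of each genotype. Wild-type and caa39 points do not overlap in any family; the widest separations are those of ATGP10, from 8.04 to 58.9, and ATGP8, from 136 to 25.6 normalised reads.

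ATGP10 had the fewest reads of the 7 in the wild type and rose most. It stood at 7.42, 5.76 and 10.9 normalised reads in wild-type libraries a, b and c, against 65.9, 63.7 and 47.0 in the caa39 libraries in the same order. The lowest caa39 library was thus 4.30 times the highest wild-type library. The means were 8.04 ± 2.65 and 58.9 ± 10.3 normalised reads (SD, n = 3 each). In limma the log2 fold change was 2.83 with a 95% interval of 2.17 to 3.48 (limma adjusted p = 0.000308), and the authors' deposited table gives an adjusted p of 2.55e-11. The wild-type value rests on 21 reads, against 210 in caa39. The ratio of pooled reads, each divided by the summed size factors of its genotype, was 7.55. Its exact 95% interval of 4.81 to 12.5 covers counting error only.

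ATGP2 rose by less, from a higher level. The wild type gave 47.7, 40.3 and 47.4 normalised reads in libraries a, b and c, and caa39 gave 93.7, 77.7 and 74.4. Every caa39 library stood above every wild-type library, and the spread within each genotype was smaller than the gap between the means, 45.1 ± 4.18 and 82.0 ± 10.3 (SD, n = 3 each). This was a 1.82-fold rise (adjusted p = 0.00409) by the authors' deposited table. With limma the log2 fold change was 0.85, with a 95% interval of 0.52 to 1.18 (limma adjusted p = 0.00169).

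ATLANTYS3 was the only ATLANTYS family of the table that rose. Libraries a, b and c of the wild type gave 182, 185 and 204 normalised reads, and those of caa39 gave 346, 279 and 358. All caa39 libraries were higher, with library b the lowest of them. The means were 191 ± 11.8 and 327 ± 42.6 normalised reads (SD, n = 3 each), a 1.72-fold rise (adjusted p = 6.91e-07) by the authors' deposited table. Its rise of 137 normalised reads was larger than those of ATGP10, 50.8, and ATGP2, 36.8. On the log2 scale limma put the rise at 0.77, with a 95% interval of 0.45 to 1.09 (limma adjusted p = 0.00207).

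ATGP8 showed the steepest fall. In the wild type it had 114, 131 and 162 normalised reads in libraries a, b and c, and in caa39 32.2, 31.4 and 13.1. The caa39 libraries did not come near the wild type, but library c, with 12 reads, stood apart from libraries a and b, with 44 and 38. The means were 136 ± 23.9 and 25.6 ± 10.8 normalised reads (SD, n = 3 each). Its log2 fold change was −2.48 in limma, with a 95% interval of −3.43 to −1.52 (limma adjusted p = 0.00169), and the authors' deposited table gives an adjusted p of 1.49e-09. Without caa39 library c the ratio of means was 0.234, and without caa39 library a it was 0.164. The spread between caa39 libraries, a coefficient of variation of 42.2%, was above the 18.6% that counting alone gives at this level. Both this spread and the low library c rest on the set of size factors used. With the set of next smallest spread the caa39 libraries had 68, 56 and 38 reads. These came to 24.6, 20.7 and 31.4 normalised reads. The letters do not carry over between sets: the library with 38 reads is library b of the set used, at 31.4 in both. By size of fall ATGP8 was in place 7 of the 83 families.

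ATLANTYS2 was the most abundant of the families and lost most reads. Libraries a, b and c gave 1103, 1221 and 1049 normalised reads in the wild type and 781, 647 and 669 in the mutant. The genotypes were separate, and the highest caa39 library stood at 0.744 of the lowest wild-type library. The means were 1124 ± 87.9 and 699 ± 71.5 normalised reads (SD, n = 3 each), and the authors' deposited table puts caa39 at 0.622 of the wild type (adjusted p = 3.79e-09). limma gave a log2 fold change of −0.69 with a 95% interval of −0.98 to −0.40 (limma adjusted p = 0.00215). The change of ATLANTYS2, −426 normalised reads, was larger than those of ATLANTYS1, ATGP9B and ATGP8, at −175, −125 and −110.

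By the authors' deposited table ATLANTYS1 fell to 0.698 of the wild type (adjusted p = 3.90e-05). It had 565, 630 and 541 normalised reads in the wild type, libraries a to c, against 395, 415 and 402 in caa39. With the set of size factors used, the caa39 libraries had a coefficient of variation of 2.58%, below the 4.68% that counting alone gives on average. That set was chosen for a small spread. With the set of next smallest spread they stood further apart, at 461, 336 and 415 normalised reads. The library at 415 is library b of the set used. All caa39 libraries were under the wild type with either set. The means were 579 ± 46.2 and 404 ± 10.4 normalised reads (SD, n = 3 each). This was a log2 fold change of −0.52 in limma, with a 95% interval of −0.75 to −0.28 (limma adjusted p = 0.00289).

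ATGP9B was the most abundant ATGP family and the one whose genotypes lay closest. Libraries a, b and c had 427, 463 and 380 normalised reads in the wild type, compared with 264, 346 and 284 in caa39. The highest caa39 library, b, reached 0.911 of the lowest wild-type library, c. The means were 424 ± 41.4 and 298 ± 43.1 normalised reads (SD, n = 3 each), and the authors' deposited table puts caa39 at 0.704 of the wild type (adjusted p = 0.00138). limma put the log2 fold change at −0.51 with a 95% interval of −0.87 to −0.15 (limma adjusted p = 0.0152). This was the largest of the 7 limma adjusted p-values.

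In limma, adjusted by the Benjamini-Hochberg method over all 83 families, all 7 passed, against 97.6% of the listed families. Of these, 3 were higher, against 47.0% of all, and 4 lower, against 50.6%. The size of the rises and falls, and whether they are called, depends on how libraries are scaled. With the authors' size factors the listed reads of caa39, unassigned elements included, came to less than those of the wild type, by 0.31 on the log2 scale. Scaling each library to its own listed reads shifted the log2 fold changes of the 83 families upward by a median of 0.31. No family of the 7 changed direction, but on that scale limma called 3 higher and 2 lower, in place of 3 and 4. Of all listed families it called 83.1% on that scale, 48.2% higher and 34.9% lower. ATGP9B stood at −0.20 with a 95% interval of −0.54 to 0.14 (limma adjusted p = 0.201) and ATLANTYS1 at −0.21 with an interval of −0.42 to 0.01 (limma adjusted p = 0.0620). The libraries of ATGP9B overlapped on that scale, while those of the other 6 families did not. The share of all listed families without overlap was not computed on that scale, so this is not a result about the 6. ATLANTYS2 kept its call at −0.38 (limma adjusted p = 0.0183) and ATGP8 at −2.17 (limma adjusted p = 0.00283). The rises were 3.12 for ATGP10, 1.16 for ATGP2 and 1.08 for ATLANTYS3. The listed reads used for the second scaling come only from entries chosen for a difference between genotypes. Which scaling is nearer to RNA per cell was not tested.

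**Figure D2:**
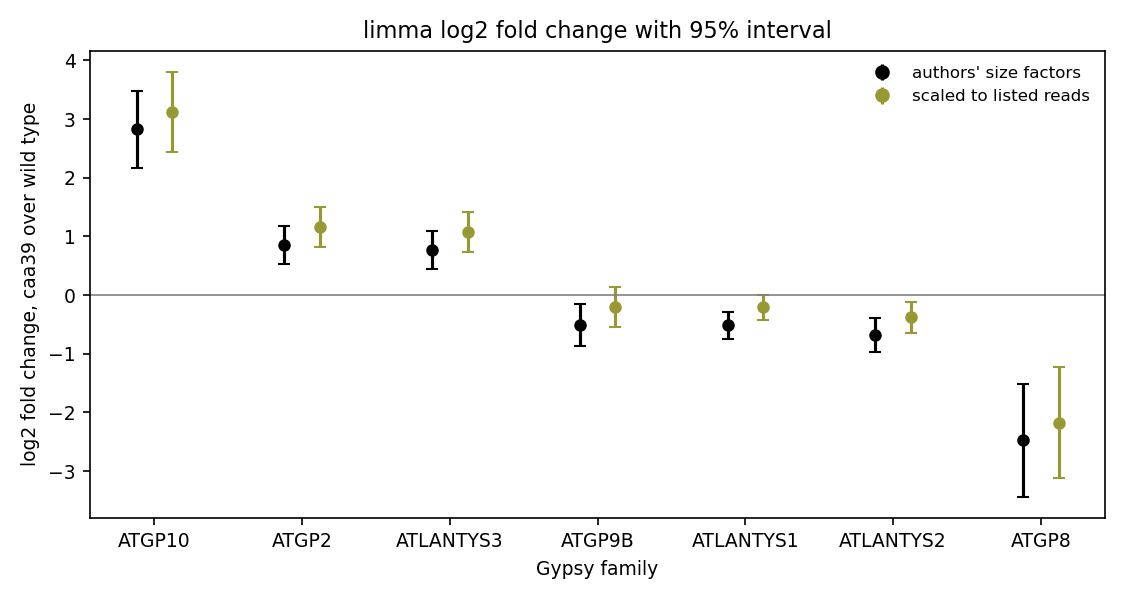
log2 fold change of each family, caa39 over wild type, from limma with its 95% interval (n = 3 libraries per genotype), with the authors' size factors in black and with libraries scaled to their listed reads in olive. Under the second scaling every value moves up, and the intervals of ATGP9B and ATLANTYS1 reach across 0.

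The next comparison set the families beside each other within the same library, where the size factors cancel from a ratio of reads. The caa39 reads themselves still rest on the set of size factors used. With that set, ratios among ATGP9B, ATLANTYS1 and ATLANTYS2, which fell, overlapped between genotypes. So did the ratio of ATGP2 to ATLANTYS3, which rose. The ratios of ATGP10 and of ATGP8 to every other family were separate. Among the 21 pairs of families, the ratio in caa39 libraries lay outside the wild-type range in 17 pairs and overlapped it in 4. The share over pairs of all listed families was not computed. Every listed family was chosen for a difference between genotypes, so this count is not a result particular to these families. Each of the 17 had an exact permutation p of 0.1, two-sided, the smallest that 3 against 3 allows, and an adjusted p of 0.124 over the 21 pairs, so the design cannot bring a ratio past 0.05. With the set used, the 4 pairs with overlap were ATGP9B with ATLANTYS1, ATGP9B with ATLANTYS2, ATLANTYS1 with ATLANTYS2, and ATGP2 with ATLANTYS3.

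ATLANTYS1 had 0.512, 0.516 and 0.516 reads per ATLANTYS2 read in the wild type, libraries a to c, against 0.506, 0.641 and 0.601 in caa39. The wild-type ratios were nearly equal, and caa39 libraries b and c stood above them while library a stood below. This overlap rests on the set of size factors used. With the set of next smallest spread, caa39 had 1273, 906 and 502 ATLANTYS1 reads and 2288, 1677 and 783 ATLANTYS2 reads. The library with 502 and 783 reads is library b of the set used. With the next set the ratio stood above the wild type in every caa39 library. ATGP9B had 0.703 to 0.756 reads per ATLANTYS1 read in the wild type and 0.668 to 0.835 in caa39, so the caa39 libraries enclosed the wild-type range. The change of that ratio was 1.00-fold. ATGP2 had 0.217 to 0.262 reads per ATLANTYS3 read in the wild type and 0.208 to 0.279 in caa39, a change of 1.06-fold.

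Other ratios moved far. For each ATLANTYS3 read the wild-type libraries had 6.05, 6.58 and 5.14 ATLANTYS2 reads, the caa39 libraries 2.26, 2.32 and 1.87, and the ratio between these ATLANTYS families went to 0.363 of its wild-type value. For each ATLANTYS2 read there were 0.104, 0.108 and 0.154 ATGP8 reads in wild-type libraries, against 0.0413, 0.0485 and 0.0196 in caa39. The reads of ATGP10 per ATGP8 read numbered 0.0648, 0.0439 and 0.0677 in wild-type libraries, against 2.05, 2.03 and 3.58 in caa39. The ratio of ATGP10 to ATGP8 thus changed 42.6-fold and crossed 1 in all 3 caa39 libraries.

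**Figure D3:**
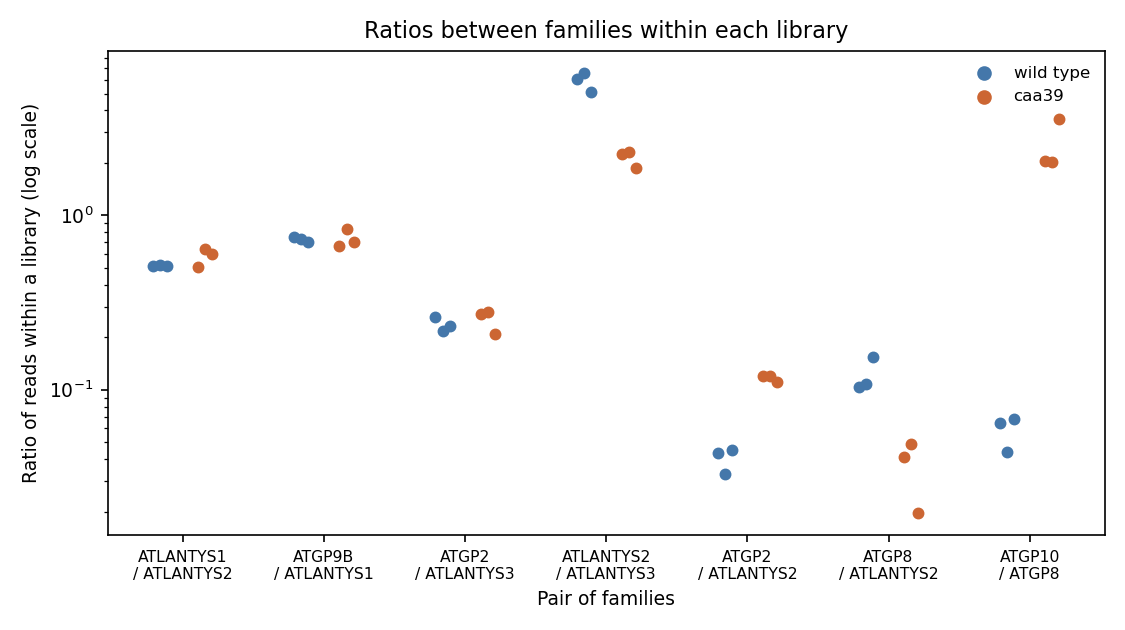
Ratio of reads between 2 families within each library (log scale), with 1 point per library. With the set of caa39 size factors used, the first 3 pairs overlap between genotypes. ATLANTYS2 to ATLANTYS3 goes from between 5.14 and 6.58 in the wild type to between 1.87 and 2.32 in caa39. ATGP10 to ATGP8 goes from at most 0.0677 to at least 2.03.

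The order of the families by normalised reads differed between genotypes. These are reads per family, not corrected for length or number of copies, so they do not rank expression per element. In the wild type the order from high to low was ATLANTYS2, ATLANTYS1, ATGP9B, ATLANTYS3, ATGP8, ATGP2 and ATGP10, with no overlap between the libraries of neighbours. In caa39 it was ATLANTYS2, ATLANTYS1, ATLANTYS3, ATGP9B, ATGP2, ATGP10 and ATGP8. ATLANTYS3 and ATGP9B overlapped in caa39: ATLANTYS3 had more reads in libraries a and c and fewer in b. ATGP8 went from above ATGP2 and ATGP10 in every wild-type library to below both in every caa39 library. Among all 83 families ATLANTYS2 was in place 4 by wild-type mean and in place 5 by caa39 mean, ATGP10 in places 69 and 47, and ATGP8 in places 32 and 60.

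The last comparison took the families together. Their summed level went from 2506 ± 150.2 to 1895 ± 71.1 normalised reads, to 0.756 of the wild type (SD, n = 3 each; no test was made on the sum). The wild-type libraries summed to 2447, 2677 and 2395, and the caa39 libraries to 1976, 1861 and 1847, with no overlap. The 3 families that rose gained 224 normalised reads together and the 4 that fell lost more, with a difference of −836. The 4 ATGP families went from 613 ± 24.2 to 465 ± 50.7 and the 3 ATLANTYS families from 1894 ± 127 to 1430 ± 89.8 (SD, n = 3 each), ratios of 0.758 and 0.755. Each of these sums leaned on its most abundant family. The ATGP sum without ATGP9B was 189 ± 27.1 and 166 ± 29.2, and the ATLANTYS sum without ATLANTYS2 was 769 ± 40.1 and 731 ± 33.7, in wild type and caa39, both with overlapping libraries (SD, n = 3 each). On the scale of listed reads the sum of the 7 families stood at 0.937 of the wild type, and the ATGP and ATLANTYS sums, at 0.939 and 0.936, overlapped between genotypes. Without ATLANTYS2 the direction turned on that scale, to 1.07 for the joint sum and 1.18 for the ATLANTYS sum, both with separate libraries, and without ATGP9B the ATGP sum stood at 1.09 with overlapping libraries.

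The make-up of the sum also shifted. ATLANTYS2 supplied 43.8% to 45.6% of the reads of the 7 families in wild-type libraries and 34.8% to 39.5% in caa39 libraries. ATLANTYS3 supplied 6.93% to 8.53% in the wild type and 15.0% to 19.4% in caa39. ATGP8 went from between 4.68% and 6.75% to between 0.711% and 1.69%, and ATGP10 from between 0.215% and 0.457% to between 2.55% and 3.42%. The ATGP9B share overlapped, at 15.9% to 17.5% and 13.3% to 18.6%. The ATLANTYS families together held 75.5% ± 0.580 of these reads in wild-type libraries and 75.5% ± 2.92 in those of caa39 (SD, n = 3 each). The 7 families made up 12.1% to 12.6% of all reads in named families in wild-type libraries and 11.1% to 11.9% in caa39 libraries.

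**Figure D4:**
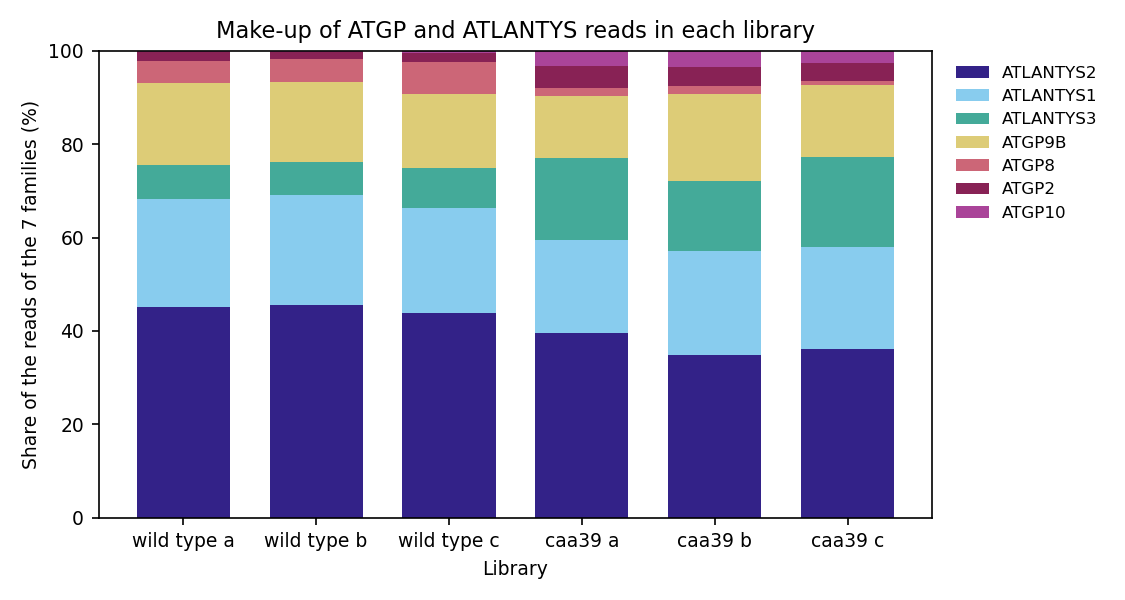
Share of the reads of the 7 families supplied by each family, in percent, with 1 bar per library. ATLANTYS2 shrinks from at least 43.8% in the wild type to at most 39.5% in caa39, and ATLANTYS3 widens from at most 8.53% to at least 15.0%.

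The 7 families were then set beside the rest of the table. By the authors' deposited table their median log2 fold change was −0.51, against −0.35 over all 83 families. The median size of the change in either direction was 0.78, against 1.42 over all families, and 2 of the 7, ATGP10 and ATGP8, reached 2-fold, against 61.4% of all. By prefix the median size was 1.63 for the 4 ATGP families and 0.69 for the 3 ATLANTYS families. Their median level was 259 normalised reads, against 80.7, and a family with more reads can pass the authors' threshold with a smaller fold. The 4 ATHILA families, the other listed Gypsy elements, all rose, with a median of 2.41 on the log2 scale in the authors' deposited table. The summed ATHILA level went from 72.1 ± 18.0 to 391 ± 30.6 normalised reads (SD, n = 3 each). That of the 7 families went from 2506 ± 150.2 to 1895 ± 71.1 (SD, n = 3 each). The 7 families held 96.7% to 97.7% of the reads of listed Gypsy families in wild-type libraries, and 81.9% to 83.9% in caa39 libraries. Of the 24 ATCOPIA families, LTR elements of the Copia type, 11 were higher and 13 lower, with a median of −0.44 in the authors' deposited table. The other 48 families had 22 higher and 26 lower, with a median of −0.45.

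**Figure D5:**
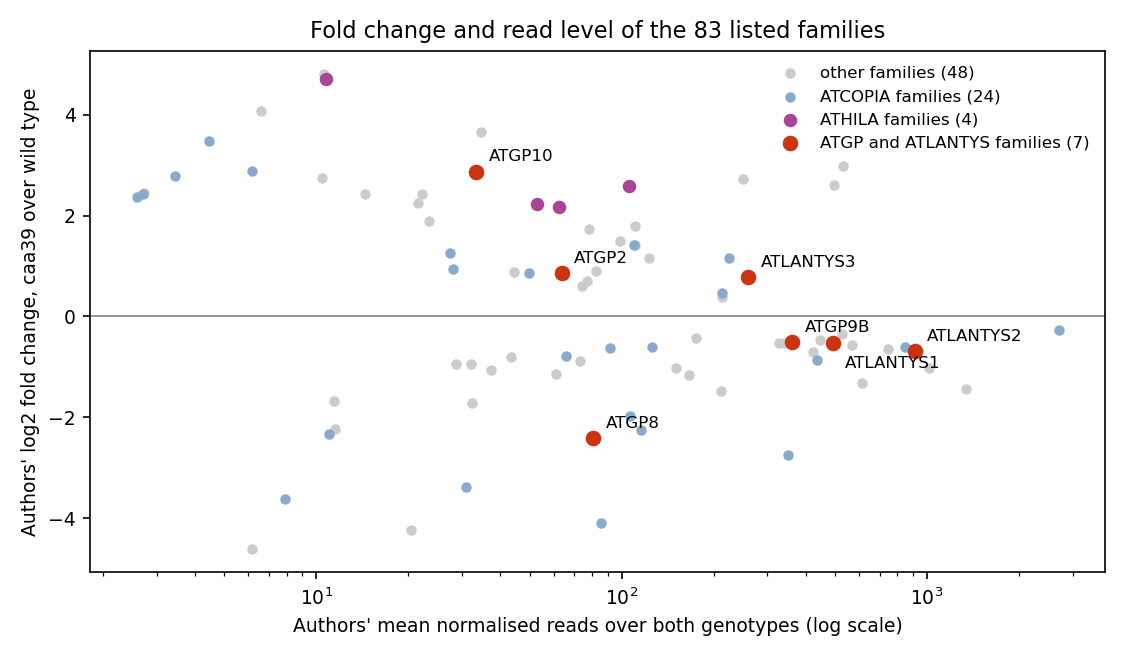
The authors' log2 fold change, caa39 over wild type, against the authors' mean of normalised reads over both genotypes (log scale), with 1 point for each of the 83 listed families. ATGP10 sits among the rises with the ATHILA families, ATGP8 among the steep falls, and ATGP9B, ATLANTYS1 and ATLANTYS2 in the dense band just under 0 at high read levels.

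Families of like level and like fold change came from several kinds of element. Among listed families with a mean within 2-fold, the nearest to each of the 7 was sought by the log2 value of the authors' deposited table. The Helitron ATREP10D, a rolling-circle DNA transposon family at −0.52, was nearest to both ATGP9B and ATLANTYS1. ATMU10, a MuDR DNA transposon family at −0.64, was nearest to ATLANTYS2. ATCOPIA93, a Copia family at −2.24, was nearest to ATGP8, and ATCOPIA78, a Copia family at 0.86, to ATGP2. ATLANTYS3 had its nearest neighbour 0.31 away, in ATCOPIA75 at 0.47, and ATGP10 0.43 away, in the En-Spm family ATENSPM9 at 2.44. Families nearest in level could differ widely in fold: ATENSPM11, nearest to ATLANTYS1 with a mean of 496 against 491 normalised reads, rose 6.13-fold in the authors' deposited table.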

How the data were processed

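Per the labels' protocols the RNA libraries were stranded and made from mRNA. Samples were grouped by the genotype in their titles. Chromatin and bisulfite samples were left out. Tools in the submitters' processing notes are FastQC 0.10.1, edgeR 1.12.0 and Bowtie2, with the TAIR10 build and no roles. The assignment of reads to families, the use of strand and the treatment of reads matching several copies are not stated, so related families may have reads in common.

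The deposited signal of a genotype is, per the file headers, the authors' mean of normalised reads. The deposited ratio (fold) is caa39 over wild type, the deposited log2 value its logarithm, and each deposited p-value has an adjusted one beside it. Of the 84 entries, 1 of unassigned elements, with 28.3% of the listed reads, stayed out of all tests.

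Library counts were solved from the 15-digit means, each a sum of 3 whole read numbers times a constant per library. All 78 distinct wild-type means above 0 and all 84 caa39 means had exactly 1 solution with the constants used. The tolerance was a relative 1e-14 plus 2e-13. In 4 other entries a wild-type mean written as 1 was read as 0, the value that the overall mean implies. With size factors limited to at most 3 and at least its inverse, 1 set of constants was found for the wild type and 6 for caa39. The set in which libraries differed least was used (median coefficient of variation 8.00% over means of at least 100, against 16.1% for the next), so every caa39 library value rests on that choice, and with it the SDs, limma values, overlaps, ratios and shares, but not the group means. The 6 size factors then had a geometric mean of 1.00, against 1.35 with the next set. The next set gave exactly 1 solution for 83 of the 84 caa39 means. Size factors were 0.943, 0.868 and 0.823 (wild type a, b, c) and 1.37, 1.21 and 0.914 (caa39 a, b, c). Means below 300 that were shifted slightly at random had no solution, and the solver and limma were tested on simulated data.

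Differences were tested with limma 3.58.1 (R 4.3.3), taking log2 of normalised reads plus a pseudocount of 0.5. Families listed as significant on these libraries were tested again on the same libraries, so these calls are not independent evidence. The series design calls the libraries biological replicates. Other work used Python 3.11.15, numpy 2.4.6, scipy 1.17.1, pandas 2.3.3 and matplotlib 3.10.9. The families, lists, tests and alternatives were chosen with earlier results of these data known. All 7 families are named, and of others the nearest in fold among families within 2-fold in mean, or the nearest in mean.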

Additional observations from a re-analysis of the deposited data

How the results depend on the processing

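Of 70 alternative limma values for the 7 families, 68 kept their call at an adjusted p below 0.05 and 0 turned direction, though the fold changes themselves moved. The call was lost in 2, for ATGP9B (−0.20, limma adjusted p = 0.201) and ATLANTYS1 (−0.21, limma adjusted p = 0.0620), both with libraries scaled to listed reads, a scaling that raises all folds. With a library left out all 7 passed in each fit, against 91.6% to 97.6% of all families, the largest limma adjusted p being 0.0478, of ATGP9B without caa39 library c. Across these fits the log2 fold changes ran from 2.63 to 3.06 for ATGP10, 0.75 to 0.92 for ATGP2, 0.70 to 0.88 for ATLANTYS3, −0.62 to −0.43 for ATGP9B, −0.56 to −0.45 for ATLANTYS1, −0.77 to −0.63 for ATLANTYS2 and −2.69 to −2.06 for ATGP8. By the authors' deposited table all 7 had an adjusted p below 0.01. A Bonferroni adjustment over the 83 families left 6, without ATGP2, and a 2-fold minimum left 2, fewer by construction. The log2 ratios of the ATGP, ATLANTYS and joint sums were −0.40, −0.41 and −0.40. Scaled to listed reads they were −0.091, −0.096 and −0.095, and without the most abundant family −0.18, −0.073 and −0.21. With a library left out they ran from −0.49 to −0.33, −0.45 to −0.35 and −0.44 to −0.35. With the set of caa39 constants of next smallest spread, tried after seeing the data, all 7 kept their call (94% of all families passed) and separate libraries. The limma adjusted p was up to 0.0446, of ATGP9B. With that set the ratio of ATLANTYS1 to ATLANTYS2 no longer overlapped between genotypes. The values of the other ratios and of the shares are not given for it. No paired analysis was possible because solved libraries cannot be matched to the numbered replicates of the labels. The authors' p-values could not be recomputed without a library.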
